A study of Mus musculus with 18 samples.

Results

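Hippocampi of mice that had been exposed to intermittent hypoxia treatment (IHT) for 5 days and then kept in normoxia for 64 h, labelled as 2 days of recovery (IH5DR2), were set against hippocampi of untreated mice (Ctrl). The arrays were chosen by their group labels, 3 of IH5DR2 and 3 of Ctrl, which are 6 of the 18 arrays of the series, and all probe sets were considered. IHT was given in daily sessions of 8 h, each a run of 3-min cycles in which nitrogen flowed for 1 min and room air for 2 min, so that inspired oxygen moved between 5% and 21%. The 3 arrays of IH5D, from mice killed right after the same 5 days of sessions, served to ask what the recovery days added. The remaining arrays were of mice given such sessions for 28 days (IH28D), controls kept for 28 days (Ctrl28) and mice reared for 12 months. These arrays entered the estimate of the spread and the mean signal by which probe sets were chosen. Ctrl28 also served as an alternative to Ctrl. All IH5DR2, IH5D and Ctrl mice were male mice of the strain C57Bl/6 (C57BL/6J in the methods) with no transgene, 10 weeks old at the start. Ctrl28 mice, male C57BL/6J by the methods, were also 10 weeks old at the start and were kept in normoxia for 28 days. Sessions ran in the daytime, IH5D mice were killed in the late afternoon, and a recovery of 64 h means that IH5DR2 mice were killed in the morning. The hour of killing is not given for Ctrl, so recovery and time of day cannot be told apart in any difference between IH5DR2 and the other groups. The labels do not say whether the 3 arrays of a group came from separate mice, so that p-values reflect only how far these arrays spread, which may be technical.

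The hippocampus forms spatial and episodic memories, and its main cells are the pyramidal neurons of CA1 and CA3 and the granule cells of the dentate gyrus. Falling oxygen stabilizes hypoxia-inducible factors, which raise genes of glucose transport, glycolysis and blood vessel growth, and repeated cycles of low and normal oxygen also expose cells to reactive oxygen species. Once oxygen returns, these factors are degraded within minutes, whereas changes in RNA and protein can outlast them.

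Values are MAS5 signals, the brightness of a probe set scaled so that the trimmed mean of every array is close to 100, and signals of different genes cannot be compared with each other. The arrays of both groups were alike in scale, with median signals of 20.4 to 21.3 in IH5DR2 and 19.3 to 20.1 in Ctrl. The log2 gap between 3' and 5' probe sets of Actb and Gapdh, which grows as RNA breaks down, was 0.48 to 0.49 in IH5DR2 and 0.34 to 0.47 in Ctrl, so that it was higher on every IH5DR2 array, and the part of this gap in the results below was tested only as a covariate. Signals correlated at 0.971 to 0.977 among IH5DR2 arrays, at 0.962 to 0.966 among Ctrl arrays and at 0.934 to 0.966 between the groups. Markers of hippocampal neurons were present. All 13 markers of CA1 and CA3 pyramidal neurons and all 12 of dentate granule cells had a mean signal above 20.

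A gene is said to have risen or fallen in IH5DR2 where the limma test over 11656 genes gave an adjusted p (Benjamini-Hochberg) below 0.05. This held for 654 genes, 5.61% of those tested, of which 510 rose (4.38%) and 144 fell (1.24%). Centring every array on the median of the tested genes changed this split to 403 rises and 193 falls. The median log2 difference of the genes that passed was 0.70 in size, and 83 genes rose by more than 1 while 9 fell by more than 1. The IH5DR2 and Ctrl arrays did not overlap in 650 of the 654 genes, against 40.8% of all genes tested. Where groups without overlap are given below for genes that passed, this describes them and is no further support. The calls depended on single arrays. In limma none remained without Ctrl array 2 or without IH5DR2 array 2 or 3 (1874, 2657 and 2449 genes with an unadjusted p below 0.05), 7 remained without Ctrl array 3 and 84 without IH5DR2 array 1, while 1353 genes passed without Ctrl array 1 and 2594 without Ctrl28 array 1. Each of the 654 genes kept its direction when any 1 of the 6 arrays was left out. For the 650 without overlap this had to be so, and it says nothing on how firm the calls are. With Ctrl28 in place of Ctrl, 36 of the 654 genes passed in the same direction. Ctrl28 array 1 had a 3' to 5' gap of 2.39, against 0.33 to 0.97 on all other arrays. Ctrl28 was not set against IH5DR2 without that array, so its part in the Ctrl28 results here and below was not tested. Of the 132 genes given with values here and in the closing section, 55 turned direction with Ctrl28, and 5 of these passed that way (Nr1d2, Gstm1, Cdk5, Usp1 and Eif6).

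**Figure D1:**
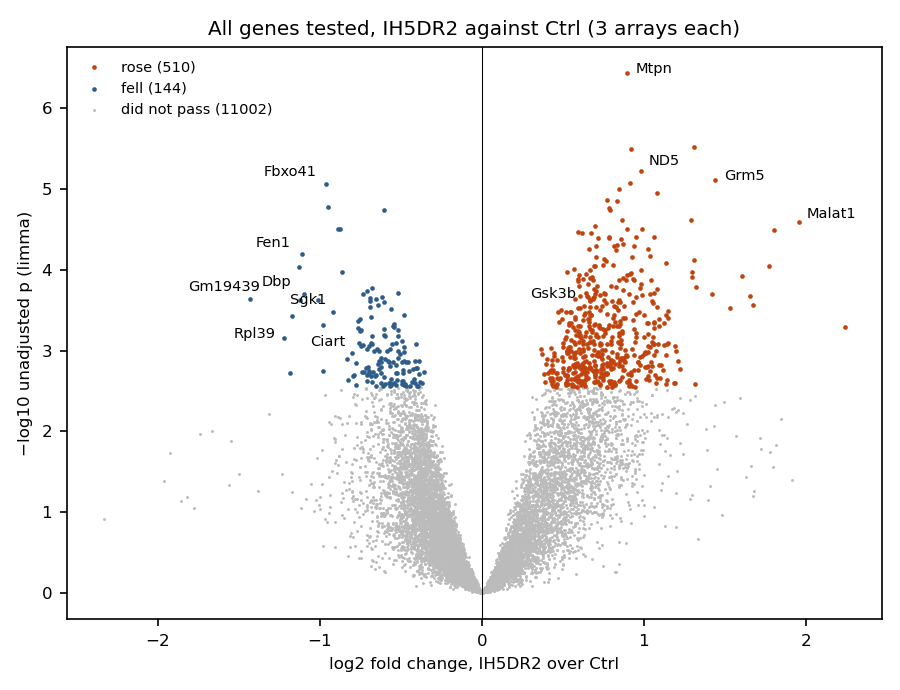
Log2 fold change of IH5DR2 over Ctrl (horizontal) against −log10 of the unadjusted limma p (vertical) for each of the 11656 genes tested, with 3 arrays per group. Red points are the 510 genes that rose, blue points the 144 that fell, and grey points the genes that did not pass.

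The 15 largest rises were taken from genes that passed, reached a mean signal of 100 in the higher group and had no overlapping arrays. They included a nuclear RNA, receptors of both fast and slow synaptic signals, ubiquitin ligases and RNA-binding proteins. Malat1, a long noncoding RNA of nuclear speckles, had signals of 3882, 3454 and 3017 in IH5DR2, 1858, 1762 and 1645 in IH5D and 1055, 725 and 905 in Ctrl (log2 difference from Ctrl 1.96 ± 0.35 (SE), adjusted p = 0.0146). Its IH5DR2 arrays lay above all IH5D arrays and these above all Ctrl arrays, and all 6 other probe sets of Malat1 were higher in IH5DR2 than in Ctrl as well. Siah1a, a RING-type ubiquitin ligase, had 144, 126 and 151 in IH5DR2 and 66.8, 46.2 and 59.7 in Ctrl (log2 1.30 ± 0.27 (SE), adjusted p = 0.0197). Its 2 other probe sets differed by only 0.13 and 0.40. Rnf6, a further RING-type ligase, had 196, 241 and 276 in IH5DR2 and 133, 90.8 and 101 in Ctrl (log2 1.14, adjusted p = 0.0193), and 0.38 by its other probe set. Topors, a nuclear ligase for ubiquitin and SUMO, had 115, 142 and 177 in IH5DR2 and 62.2, 57.7 and 66.9 in Ctrl (log2 1.19, adjusted p = 0.0485). As the choice by arrays without overlap requires, the lowest IH5DR2 array lay above the highest Ctrl array in each of these 3 ligase genes. Tia1, an RNA-binding protein of stress granules, had 277, 281 and 237 in IH5DR2 and 132, 92.7 and 140.4 in Ctrl (log2 1.14, adjusted p = 0.0364), and its 4 other probe sets moved the same way. Dnajc21, a J-domain protein that acts in ribosome assembly, had 118, 110.0 and 118 in IH5DR2 and 47.1, 52.6 and 51.2 in Ctrl (log2 1.20, adjusted p = 0.0352). The remaining names were Gm13306 (log2 1.65, adjusted p = 0.022), whose product has no given role here, and Zfp932 (log2 1.22, adjusted p = 0.0414), a zinc finger gene, along with genes given with their groups below. Siah1a (-0.21) and Dnajc21 (-0.055) turned direction with Ctrl28 in place of Ctrl.

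Falls were fewer than rises among the limma calls. The methods' t-test before adjustment gave 1160 rises and 1313 falls. Over all genes tested, all IH5DR2 arrays lay above all Ctrl arrays in 18.7% and below them in 22.1%. Fen1, the flap endonuclease of DNA replication and base excision repair, had 97.5, 78.2 and 89.5 in IH5DR2, 112, 165 and 166 in IH5D and 161, 241 and 178 in Ctrl (log2 -1.11 ± 0.21 (SE), adjusted p = 0.0175). Every IH5DR2 array lay below every array of both other groups. The other probe set of Fen1 differed from Ctrl by -0.50. Fbxo41, a neuronal F-box protein, had 229, 213 and 236 in IH5DR2 and 538, 406 and 386 in Ctrl (log2 -0.96 ± 0.16 (SE), adjusted p = 0.0143). Lrrc8d, a subunit of the volume-regulated anion channel, had 111, 109.7 and 116 in IH5DR2 and 174, 224 and 263 in Ctrl (log2 -0.95 ± 0.16 (SE), adjusted p = 0.0143). For both genes the IH5DR2 arrays agreed closely with each other. The other probe set differed by less, -0.34 for Fbxo41 and -0.44 for Lrrc8d. Kcnj11, the pore of the ATP-sensitive potassium channel, which opens when cell energy is low, had 169, 149.9 and 132 in IH5DR2 and 285, 248 and 282 in Ctrl (log2 -0.86 ± 0.17 (SE), adjusted p = 0.0197). Pim3, a serine/threonine kinase, had 303, 350.2 and 291 in IH5DR2 and 503, 663 and 573 in Ctrl (log2 -0.88, adjusted p = 0.0146). Timm17b, a subunit of the protein translocase of the mitochondrial inner membrane, had 175, 171 and 148 in IH5DR2 and 280.4, 299.8 and 275 in Ctrl (log2 -0.79, adjusted p = 0.0444). As for the rises, groups that did not overlap were a condition of being among the largest falls. Preb, a protein of the endoplasmic reticulum exit sites, fell by the probe set with the highest signal (log2 -1.12, adjusted p = 0.022), but its other 2 probe sets differed by only -0.17 and -0.03. Plekhf1, an endosomal protein (log2 -0.98, adjusted p = 0.0425), Nat8f1, of the N-acetyltransferase family (log2 -0.83, adjusted p = 0.0386), and Gm19439 (log2 -1.43, adjusted p = 0.022) complete the largest falls with genes described in the following groups. Kcnj11 (0.084) and Plekhf1 (0.030) turned direction with Ctrl28 in place of Ctrl.

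**Figure D2:**
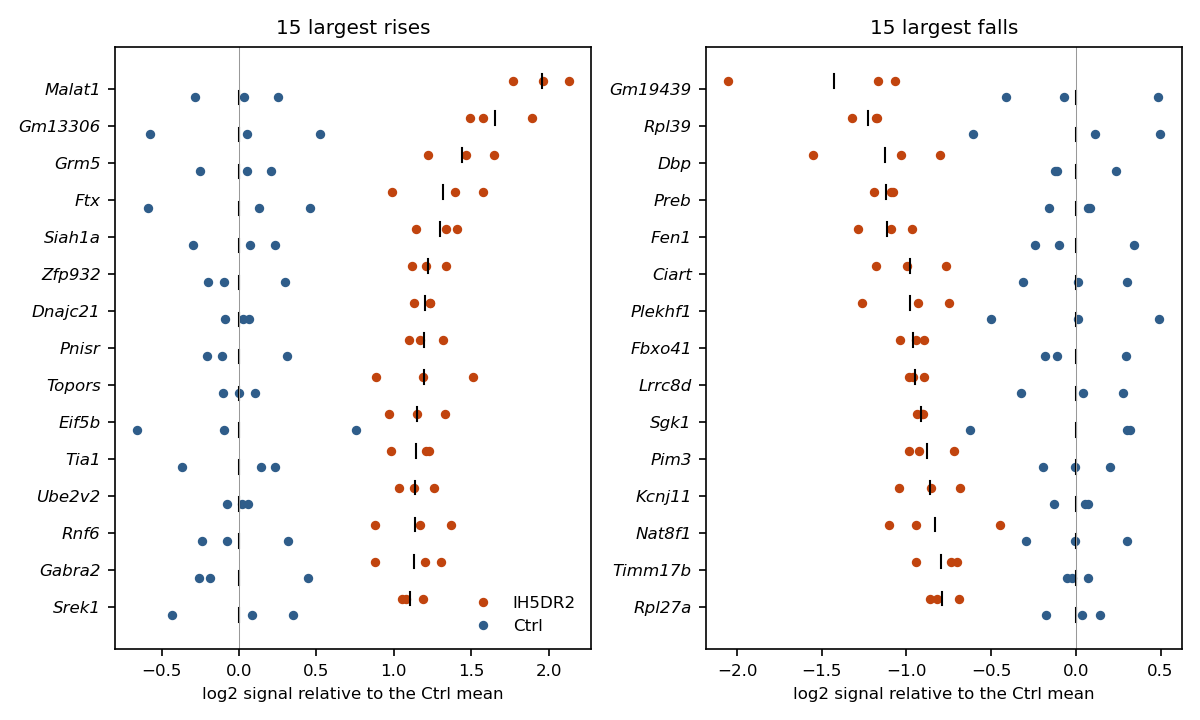
Log2 signal relative to the Ctrl mean (horizontal) of the 15 genes with the largest rises (left) and the 15 with the largest falls (right), 1 point per array, red for IH5DR2 and blue for Ctrl, with a bar at each group mean. No gene shown has overlapping arrays, since that was a condition of being shown, and the spread among the 3 Ctrl arrays is widest for genes such as Eif5b.

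Nuclear and other long noncoding RNAs had the highest share of rises among the groups described. Of 16 tested, 6 rose and none fell, against 4.38% and 1.24% of all genes. The median log2 difference was 0.71 against -0.07 over all genes. In 10 of the 16 all IH5DR2 arrays lay above all Ctrl arrays, against 18.7% of all genes. Meg3, an imprinted RNA abundant in neurons, had 2528, 2629 and 2307 in IH5DR2, 3115, 2315 and 2968 in IH5D and 1831, 1008 and 1361 in Ctrl (log2 0.87 ± 0.18 (SE), adjusted p = 0.022), with all 10 of its other probe sets on the same side. Snhg11, a host gene of small nucleolar RNAs, had 2165, 2058 and 1981 in IH5DR2 and 1409, 778 and 1211 in Ctrl (log2 0.91, adjusted p = 0.022). Kcnq1ot1, an imprinted antisense RNA that silences its neighbours, had 99.9, 82.8 and 95.6 in IH5DR2 and 61.3, 34.9 and 43.8 in Ctrl (log2 1.03, adjusted p = 0.027). Ctrl array 1 was the highest Ctrl array for all 3 RNAs and Ctrl array 2 the lowest. Ftx, an RNA of the X inactivation centre (log2 1.32, adjusted p = 0.0487), and Dleu2, a host transcript of a microRNA cluster with Ctrl signals close to the minimum of 20 (log2 1.14, adjusted p = 0.0324), rose too, and these with Malat1 make up the 6. The median of the group was 0.04 with Ctrl28 in place of Ctrl, where Meg3 and Kcnq1ot1 turned direction.

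Among splicing factors, 12 of 85 rose and 2 fell, against 4.38% and 1.24% of all genes, with a median log2 difference of 0.11. Prpf4b, a kinase of the spliceosome, had 188, 203 and 221 in IH5DR2 and 128, 75.5 and 111 in Ctrl (log2 0.99 ± 0.18 (SE), adjusted p = 0.0146). Tra2a and Tra2b are SR-like proteins that activate exons. Tra2a had 222, 268 and 297 in IH5DR2 and 184, 166 and 167 in Ctrl (log2 0.60, adjusted p = 0.0197), and Tra2b had 638, 742 and 867 in IH5DR2 and 499, 445 and 488 in Ctrl (log2 0.64, adjusted p = 0.022). Both were higher on every IH5DR2 array, although 1 of the 2 other probe sets of Tra2b went the other way. Hnrnpa2b1, which binds RNA in the nucleus and in dendritic transport granules, had 1383, 1440.4 and 1534 in IH5DR2 and 1127, 932 and 980.5 in Ctrl (log2 0.52, adjusted p = 0.0197). Pnisr, an SR-related nuclear protein, had 369, 408 and 350.2 in IH5DR2 and 204, 142 and 152 in Ctrl (log2 1.19, adjusted p = 0.0332), with 6 of 6 other probe sets on the same side. Srek1, a regulator of splice site choice that is not on the list, had 124, 122 and 134 in IH5DR2 and 75.1, 62.3 and 43.6 in Ctrl (log2 1.11, adjusted p = 0.0406). Of its 4 other probe sets 3 were higher, and the lowest differed by -0.24. The 2 of the list that fell were Snrnp40, a protein of the spliceosome's U5 particle (log2 -0.73, adjusted p = 0.0429), and Sf3b2, a subunit of the complex that finds the branch point (log2 -0.57, adjusted p = 0.0496). The median of the 85 genes was -0.11 with Ctrl28 in place of Ctrl, where Prpf4b, Hnrnpa2b1 and Tra2b turned direction.

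Zinc finger genes with Zfp symbols, most of them putative DNA-binding regulators, had a median log2 difference of 0.25. Of 259 tested 17 rose and 1 fell, against 4.38% and 1.24% of all genes. Zfp106 had 509.8, 518 and 501 in IH5DR2 and 398, 276 and 296 in Ctrl (log2 0.67, adjusted p = 0.0146), and Zfp91 had 459, 485 and 499 in IH5DR2 and 389, 261 and 299 in Ctrl (log2 0.63, adjusted p = 0.0197). The IH5DR2 arrays of both genes lay above all Ctrl arrays. Zfp131 also rose (log2 0.75, adjusted p = 0.022). Zfp983 rose at low signals, with 20.6, 29.3 and 25.3 in IH5DR2 and 12.5, 4.72 and 7.94 in Ctrl (adjusted p = 0.023), and no fold is given, since every Ctrl signal was below the minimum of 20. Zfp628 was the one that fell (log2 -0.67, adjusted p = 0.0427). Chromatin remodelers and histone modifiers had a higher median, 0.32, but only 3 of 66 passed, against 5.61% of all genes. These were Hdac7 (log2 0.85, adjusted p = 0.0395) and Hdac2 (log2 0.60, adjusted p = 0.0469), which remove acetyl groups from histones, and Kmt2e, of the histone methyltransferase family (log2 0.53, adjusted p = 0.0486). The other probe set of Hdac7 and 1 of the 3 others of Kmt2e were lower. Hdac2 turned direction with Ctrl28 in place of Ctrl, as did Zfp106, Zfp91 and Zfp628.

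Several receptors and adhesion proteins of the synapse rose. Grm5, the metabotropic receptor mGluR5 that couples to calcium release, had 737, 835 and 622 in IH5DR2, 723, 381 and 464 in IH5D and 277, 224 and 308 in Ctrl (log2 1.44 ± 0.23 (SE), adjusted p = 0.0143). All IH5DR2 arrays were above all Ctrl arrays and 1 IH5D array reached into the IH5DR2 range. Homer1, which tethers mGluR5 to its signalling partners and has a short form induced by activity, had 462, 526 and 517 in IH5DR2, 463, 426 and 489.9 in IH5D and 319, 205 and 214 in Ctrl (log2 1.06 ± 0.23 (SE), adjusted p = 0.0225). These were the 2 of 9 metabotropic receptor and Homer genes that passed, against 5.61% of all genes, and the median of the 9 was 0.34. Homer1 turned direction with Ctrl28 in place of Ctrl (-0.10). Of 23 ionotropic glutamate receptor genes and AMPA receptor partners none passed, with 13 of them higher in IH5DR2. The smallest p among them belonged to Gria2, the AMPA receptor subunit that limits calcium entry, with 1686, 1688 and 1482 in IH5DR2 and 794, 675 and 883 in Ctrl (log2 1.05, adjusted p = 0.0546), and to Cacng2, an auxiliary subunit that brings AMPA receptors to the synapse (log2 0.69, adjusted p = 0.0572). Both had IH5DR2 arrays above all Ctrl arrays. In the study's blots GluA2, the protein of Gria2, did not change among Ctrl, IH5D and IH5DR2.

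On the inhibitory side 2 of 10 genes rose, against 4.38% of all genes, and none fell. The median log2 difference was 0.54, and in 8 of the 10 all IH5DR2 arrays lay above all Ctrl arrays, against 18.7% of all genes. Gabra2, a GABA-A receptor subunit concentrated at the axon initial segment and on dendrites, had 134, 168 and 179.7 in IH5DR2 and 64.02, 60.8 and 99.4 in Ctrl (log2 1.13 ± 0.28 (SE), adjusted p = 0.0327). Gabrb2, the beta subunit that pairs with it in many receptors, had 565, 666 and 538 in IH5DR2 and 347, 264 and 354 in Ctrl (log2 0.88 ± 0.23 (SE), adjusted p = 0.0371). Gabra2 still passed with Ctrl28 in place of Ctrl, and Gabrb2 did not. The summed signal of 17 interneuron markers was 11418 to 12066 in IH5DR2 and 11528 to 13347 in Ctrl, so the ranges of this list overlapped.

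Of 44 long neuronal and synaptic adhesion genes 8 rose and none fell, against 4.38% and 1.24% of all genes. The median log2 difference was 0.51. Nlgn1, the postsynaptic adhesion protein neuroligin 1 of excitatory synapses, had 229, 299.8 and 207 in IH5DR2 and 143, 93.8 and 112 in Ctrl (log2 1.08 ± 0.23 (SE), adjusted p = 0.022). Lsamp, an adhesion protein of limbic neurons, had 716, 886 and 802 in IH5DR2 and 619, 446 and 379 in Ctrl (log2 0.76, adjusted p = 0.0293), but only 0.08 by its other probe set. Cadm1, which joins pre- and postsynaptic membranes, had 1052, 1218 and 1065 in IH5DR2 and 773, 614 and 748 in Ctrl (log2 0.65, adjusted p = 0.0324). No Ctrl array reached the IH5DR2 range in these 3 genes. Pcdh17, a protocadherin (log2 0.67, adjusted p = 0.0324), the receptor phosphatase gene Ptprd (log2 0.76, adjusted p = 0.0351), the neuronal splicing regulator Rbfox1 (log2 0.75, adjusted p = 0.0351), the scaffold gene Dlg2 (log2 0.57, adjusted p = 0.0354) and Cntnap5a, of the contactin-associated family (log2 0.90, adjusted p = 0.0482), complete the 8. The median of the 44 genes was -0.05 with Ctrl28 in place of Ctrl, where Cadm1 and Dlg2 turned direction. The markers of CA1 and CA3 pyramidal neurons had a summed signal of 5439 to 5858 in IH5DR2 and 6118 to 6729 in Ctrl. Their median log2 difference was -0.28 (0.24 with Ctrl28 in place of Ctrl). Among the 13, 1 rose and 1 fell, against 4.38% and 1.24% of all genes. The part of cell composition in these results was not tested. The summed signal of 12 dentate granule cell markers was 2122 to 2287 in IH5DR2 and 1851 to 2120.3 in Ctrl, just without overlap, and none of the 12 passed. In hippocampal homogenate fewer cells of a type and less RNA per cell cannot be told apart.

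Scaffolds of the postsynaptic density did not move together. Of 26 tested 2 rose and 1 fell, against 4.38% and 1.24% of all genes. The median was 0.01 and became -0.08 with arrays centred on the median of all probe sets. Pick1, a PDZ protein that removes AMPA receptors from the synaptic surface, fell, with 81.1, 93.9 and 81.5 in IH5DR2, 135, 98.3 and 108 in IH5D and 137, 153 and 142 in Ctrl (log2 -0.75 ± 0.18 (SE), adjusted p = 0.0286). In the study's blots PICK1 protein did not change among Ctrl, IH5D and IH5DR2, either in level or relative to PSD-95. Psd3 rose, with 1103, 1088 and 924 in IH5DR2 and 792, 511 and 577 in Ctrl (log2 0.75 ± 0.18 (SE), adjusted p = 0.0279), and the symbol stands for a protein with a pleckstrin and a Sec7 domain, an exchange factor for a small GTPase. The other gene that rose was Dlg2, with 522, 603 and 632 in IH5DR2 and 481, 333 and 379 in Ctrl. Each of the 3 had groups that did not overlap, and Psd3 and Dlg2 turned direction with Ctrl28 in place of Ctrl.

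Genes of tau, its kinases and its phosphatases were examined because the study measured tau phosphorylation. In the study's blots phosphorylated tau and phosphorylated p70 S6 kinase were back at Ctrl levels in IH5DR2. Total GSK-3β, its phosphorylation and the PP2A subunits were similar in Ctrl, IH5D and IH5DR2. Those are protein measures, whereas the values here are of RNA. Rps6kb1, which encodes p70 S6 kinase, was not among the genes tested. Gsk3b, a main tau kinase, was the only gene of 38 that passed, against 5.61% of all genes. It rose, with 632, 665 and 711 in IH5DR2, 562, 555 and 639 in IH5D and 556, 357 and 405 in Ctrl (log2 0.63 ± 0.14 (SE), adjusted p = 0.0233). All IH5DR2 arrays lay above all Ctrl arrays, with 4 of 5 other probe sets on the same side, and the rise was also called with Ctrl28 in place of Ctrl. Mapt, which encodes tau itself, had 792, 884 and 980.4 in IH5DR2 and 914, 746 and 852 in Ctrl (log2 0.08, adjusted p = 0.709), and the interval of the difference, from -0.20 to 0.36, holds 0. Cdk5, a second tau kinase, had 564, 568 and 510.3 in IH5DR2 and 620.5, 744 and 662 in Ctrl (log2 -0.30, adjusted p = 0.166). Ppp2r1a, the scaffold of the tau phosphatase PP2A, had 6592, 7407 and 7476 in IH5DR2 and 7910.4, 9217 and 9249 in Ctrl (log2 -0.30, adjusted p = 0.277). Both lay lower on every IH5DR2 array without passing. With Ctrl28 in place of Ctrl both turned direction, to 0.84 for Cdk5, which then passed (adjusted p = 0.000695), and to 0.17 for Ppp2r1a. The catalytic subunits of PP2A, Ppp2ca (log2 -0.05, adjusted p = 0.714) and Ppp2cb (log2 -0.04, adjusted p = 0.932), differed by less than their standard errors of 0.09 and 0.25. Mtor, the kinase of the mTOR complexes, which control protein synthesis, had a log2 difference of -0.15, adjusted p = 0.437. Of 32 genes of the mTOR complexes, their regulators and effectors, only Sesn3 passed, against 5.61% of all genes. Sesn3, a stress-induced inhibitor of the pathway, rose by 0.64, adjusted p = 0.0413. Of 54 genes of the MAP kinase cascade, only Sos1 passed, against 5.61% of all genes. Sos1 is an activator of Ras (log2 0.65, adjusted p = 0.0442), and its other probe set went the other way. Sesn3 (-0.26) and Sos1 (-0.33) turned direction with Ctrl28 in place of Ctrl.

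**Figure D3:**
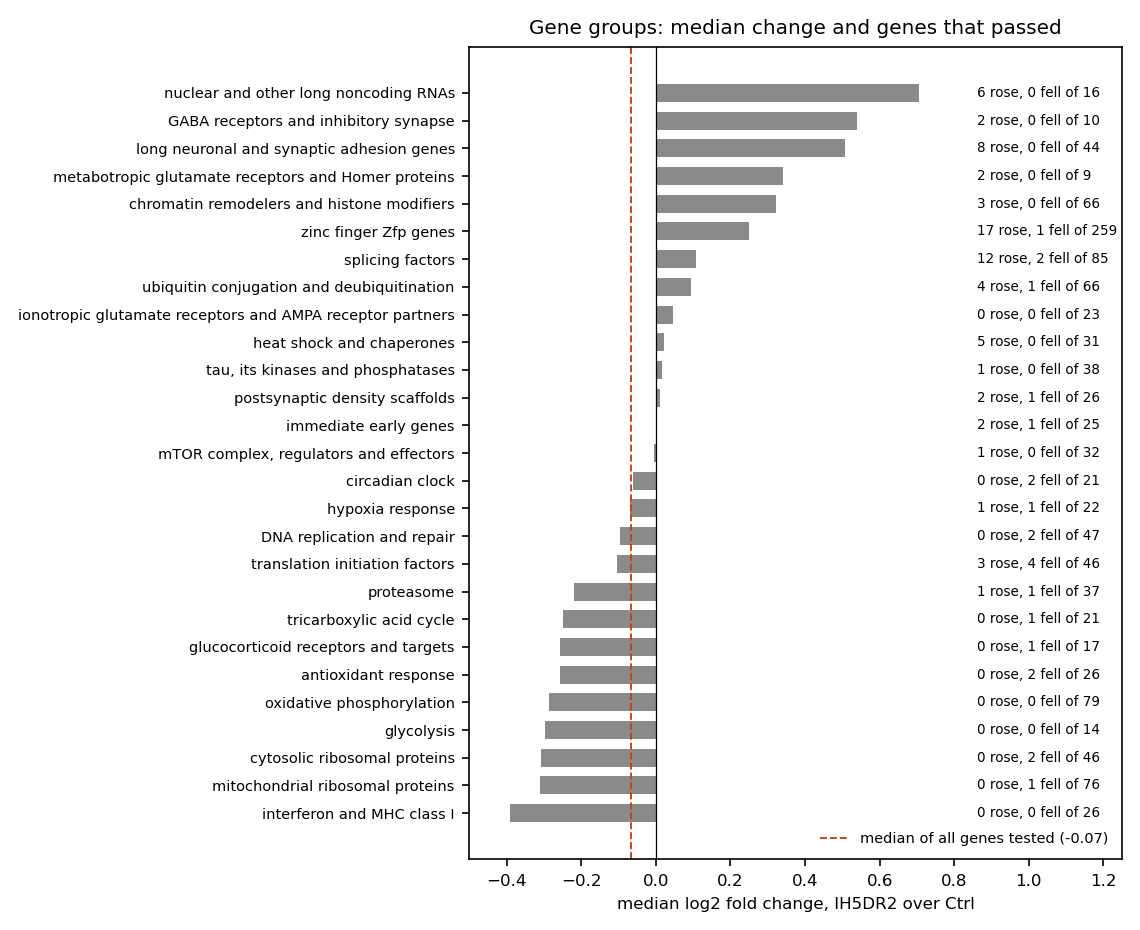
Median log2 fold change of IH5DR2 over Ctrl (horizontal) for 27 gene groups, with the number of genes that rose and fell of those tested at the right. The dashed line marks the median of all genes tested at -0.07, and the groups run between the long noncoding RNAs at 0.71 and the interferon and MHC class I genes at -0.39.

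Clock genes were of interest because IH5DR2 mice were killed at another time of day than IH5D mice. The mammalian clock is a loop in which Arntl (BMAL1) and Clock switch on the Per and Cry repressors and output genes such as Dbp and Ciart through the E-box, and Dbp in turn acts on genes with a D-box. Dbp and Ciart were the 2 of 21 clock genes that passed, against 5.61% of all genes. Both fell, against 1.24% of all genes. Their promoters, 250 bases before to 50 bases after the start of transcription (RefSeq, GRCm38.p6), are shown to let the sites near each start be read, with matches to the E-box CACGTG in capitals. Dbp lies on the plus strand at chr7:45704997-45705296 and Ciart on the minus strand at chr3:95882179-95882478, and each sequence runs 5′ to 3′ along its gene.
Dbp: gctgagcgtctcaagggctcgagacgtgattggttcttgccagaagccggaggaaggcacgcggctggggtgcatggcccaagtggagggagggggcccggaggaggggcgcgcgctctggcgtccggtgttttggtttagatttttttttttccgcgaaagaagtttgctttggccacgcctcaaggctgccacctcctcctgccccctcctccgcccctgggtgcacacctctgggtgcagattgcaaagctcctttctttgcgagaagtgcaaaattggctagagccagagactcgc
Ciart: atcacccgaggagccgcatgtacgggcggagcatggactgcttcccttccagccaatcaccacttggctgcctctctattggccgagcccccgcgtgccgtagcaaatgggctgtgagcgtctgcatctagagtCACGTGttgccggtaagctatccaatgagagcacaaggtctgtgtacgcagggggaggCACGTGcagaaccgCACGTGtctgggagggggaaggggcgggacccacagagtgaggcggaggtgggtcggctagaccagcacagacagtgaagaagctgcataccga
The Ciart window holds 3 matches, which begin 116, 58 and 44 bases before the start, and the Dbp window holds none. Both strands were searched, and the E-box reads the same on either. Of 32851 promoter windows of this length 7.15% hold at least 1 match and 0.0883% hold 3 or more. The D-box TTATGTAA, or TTACATAA on the other strand, was found in neither window and in 0.938% of all.

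Dbp, a transcription factor whose level swings widely over the day, had signals of 835, 980.0 and 582 in IH5DR2, 1168, 1198 and 1319.8 in IH5D and 1566, 2011 and 1579 in Ctrl (log2 -1.13 ± 0.23 (SE), adjusted p = 0.0197). Its groups fell into 3 ranges without overlap, with IH5DR2 lowest and Ctrl highest. Ciart, which represses Arntl and Clock, had 55.1, 64.4 and 48.4 in IH5DR2, 93.9, 69.01 and 95.5 in IH5D and 111, 135 and 88.4 in Ctrl (log2 -0.98 ± 0.23 (SE), adjusted p = 0.027). The IH5DR2 arrays were again the lowest, and those of IH5D and Ctrl overlapped. Arntl, the activator, had 138, 134 and 154 in IH5DR2, 104, 102 and 69.3 in IH5D and 102, 71.5 and 109.7 in Ctrl (log2 0.61, adjusted p = 0.0549). It was the highest in IH5DR2 on every array and did not pass. Clock, its partner, had 164, 156 and 105 in IH5DR2 and 80.04, 80.9 and 92.00 in Ctrl (log2 0.72, adjusted p = 0.13). Of the repressors, Per2 had 72.8, 75.3 and 92.9 in IH5DR2, 122, 129 and 153 in IH5D and 111, 116 and 89.7 in Ctrl (log2 -0.39, adjusted p = 0.14), with IH5DR2 below IH5D on every array, and Per1 had 200.4, 154 and 197 in IH5DR2 and 227, 269 and 223 in Ctrl (log2 -0.39, adjusted p = 0.242). Nr1d2, a nuclear receptor that represses Arntl, had a log2 difference of 0.47, adjusted p = 0.228, and with Ctrl28 in place of Ctrl it passed in the opposite direction (-0.83, adjusted p = 0.0381), while Per1 turned without passing (0.20). Of all 21 clock genes, 9 were higher and 12 lower in IH5DR2, between -1.13 and 0.84, with a median of -0.06. Against IH5D, the log2 differences of IH5DR2 were -0.65 for Dbp (-1.13 to -0.18, 95% interval), -0.62 for Ciart (-1.10 to -0.13), -0.74 for Per2 (-1.10 to -0.39) and 0.65 for Arntl (0.26 to 1.03). None of these passed after adjustment over all genes (adjusted p of 0.552 for Per2 and of 0.996 or more for the others).

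Adrenal glucocorticoids rise each day before the active phase and after stress, and they act in the hippocampus through the receptors Nr3c1 and Nr3c2. Sgk1, a kinase induced by glucocorticoids, had 757, 740.2 and 755 in IH5DR2, 2103, 2134 and 1422 in IH5D and 1749, 1767 and 919 in Ctrl (log2 -0.92 ± 0.21 (SE), adjusted p = 0.0244). The IH5DR2 arrays lay within a narrow range below all others, while Ctrl array 3 stood far below the other Ctrl arrays. Against IH5D the log2 difference of Sgk1 was -1.31 (-1.74 to -0.87), with the smallest adjusted p of that comparison, 0.0731. Tsc22d3, which encodes the glucocorticoid-induced leucine zipper, had 412, 412 and 458 in IH5DR2, 599, 616 and 450.1 in IH5D and 527, 695 and 618 in Ctrl (log2 -0.51, adjusted p = 0.0684). Nr3c1, the glucocorticoid receptor, had 239, 264 and 214 in IH5DR2, 238, 232 and 197 in IH5D and 166, 132 and 146 in Ctrl (log2 0.69, adjusted p = 0.0533). Its IH5DR2 arrays were all above the Ctrl arrays, the opposite side from Sgk1 and Tsc22d3, and neither Nr3c1 nor Tsc22d3 passed. Klf9, a further target, had a log2 difference of 0.38, adjusted p = 0.153 from Ctrl. Nr3c1 (-0.075), Tsc22d3 (0.081) and Klf9 (-0.44) turned direction with Ctrl28 in place of Ctrl. Of 17 receptors and targets, only Sgk1 passed against Ctrl, close to the 5.61% of all genes, 7 had all IH5DR2 arrays below all Ctrl arrays, against 22.1% of all genes, and the median log2 difference was -0.26 from Ctrl and -0.34 from IH5D. IH5D against Ctrl, a comparison that shares the Ctrl arrays, had a median of 0.25.

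**Figure D4:**
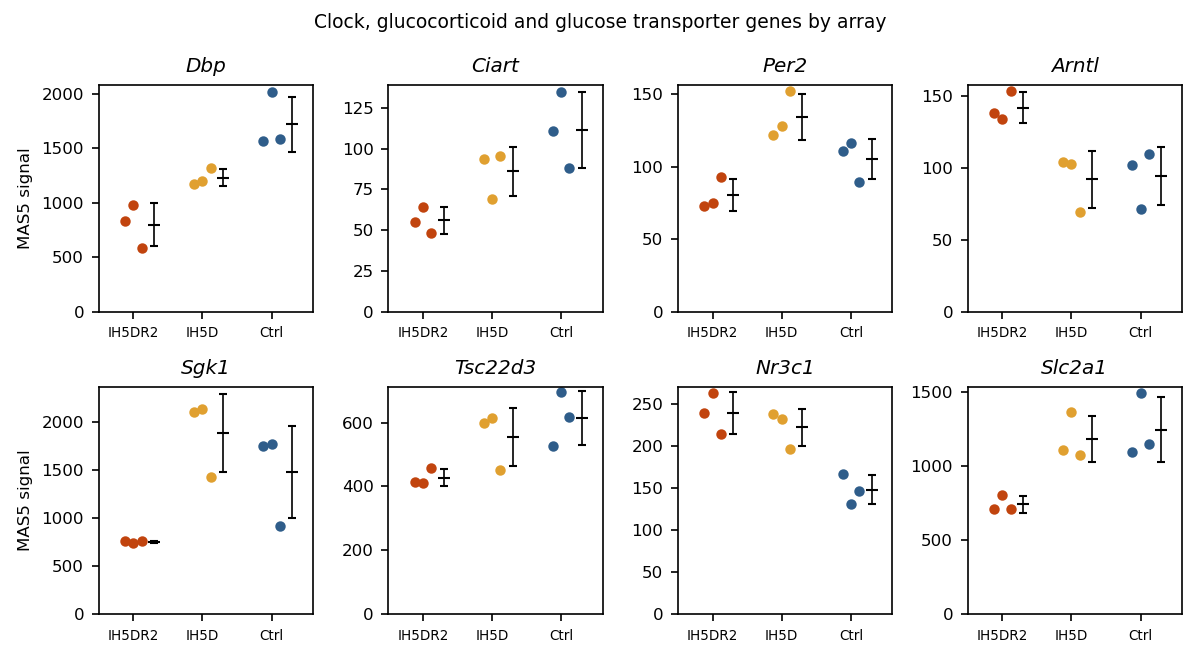
MAS5 signal (vertical, starting at 0) of 8 genes on each array of IH5DR2, IH5D and Ctrl, with the group mean and SD beside the 3 points. The IH5DR2 means are the lowest for Dbp, Ciart, Per2, Sgk1, Tsc22d3 and Slc2a1 and the highest for Arntl and Nr3c1.

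Genes of the hypoxia response did not share a direction. Slc2a1, the glucose transporter GLUT1 of the blood-brain barrier, fell, with 709, 805 and 705 in IH5DR2, 1105, 1360.0 and 1074 in IH5D and 1096, 1493 and 1145 in Ctrl (log2 -0.74 ± 0.20 (SE), adjusted p = 0.0426). The IH5DR2 arrays lay below all arrays of both other groups. Pdk1, a kinase that keeps pyruvate out of the mitochondrial citrate cycle, rose, with 201, 206 and 271 in IH5DR2, 203, 198 and 194 in IH5D and 172, 133 and 130.0 in Ctrl (log2 0.64 ± 0.14 (SE), adjusted p = 0.0245), while 1 of its 2 other probe sets was lower. Hif1a, the oxygen-regulated subunit, had 473, 563 and 431 in IH5DR2 and 432, 302 and 287 in Ctrl (log2 0.54, adjusted p = 0.0657), and its groups touched, since Ctrl array 1 exceeded the lowest IH5DR2 array, and it stood at -0.43 with Ctrl28 in place of Ctrl. Vegfa, the vascular growth factor, had 107, 109 and 143 in IH5DR2 and 79.6, 82.6 and 83.2 in Ctrl (log2 0.54, adjusted p = 0.109), higher on every IH5DR2 array without passing. Of 22 genes 1 rose and 1 fell, against 4.38% and 1.24% of all genes. The median was -0.07, the value of all genes.

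Immediate early genes, which neurons switch on within minutes of activity, likewise differed singly. Of 25 tested 2 rose and 1 fell, against 4.38% and 1.24% of all genes. The median was 0.00 and became -0.09 when arrays were centred on the median of all probe sets. Besides Homer1, Ptgs2 rose, the inducible prostaglandin synthase, with 112, 100.2 and 107 in IH5DR2, 124, 97.5 and 109.8 in IH5D and 63.4, 58.5 and 59.2 in Ctrl (log2 0.82 ± 0.19 (SE), adjusted p = 0.0247). The other probe set of Ptgs2 differed by only 0.08. Ptgs2 turned direction with Ctrl28 in place of Ctrl (-0.13). Jund, an AP-1 subunit with a steady level in most cells, fell, with 509, 627 and 462 in IH5DR2, 703, 943 and 752 in IH5D and 836, 974 and 827 in Ctrl (log2 -0.73 ± 0.18 (SE), adjusted p = 0.0329). Sik1, a kinase induced by cAMP, did not pass (adjusted p = 0.0699), at low signals with groups that overlapped.

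Of 31 genes of heat shock and chaperones 5 rose and none fell, against 4.38% and 1.24% of all genes. The median was only 0.02 and became -0.07 when arrays were centred on the median of all probe sets. Hsp90b1, the Hsp90 of the endoplasmic reticulum, had 896, 899 and 753 in IH5DR2, 745, 776 and 686 in IH5D and 586, 527 and 398 in Ctrl (log2 0.77 ± 0.17 (SE), adjusted p = 0.0225). Hspa5, its partner chaperone BiP, had 1077, 1061 and 1017 in IH5DR2, 751, 966 and 774 in IH5D and 788, 648 and 575 in Ctrl (log2 0.66 ± 0.18 (SE), adjusted p = 0.0414). For Hspa5 every IH5DR2 array was above every IH5D and Ctrl array. The J-domain proteins Dnajb4 (log2 1.0, adjusted p = 0.0247) and Dnajb6 (log2 0.47, adjusted p = 0.0244) and Hspa4l, of the Hsp110 family (log2 0.85, adjusted p = 0.027), act in the cytosol and rose as well. For Hspa5 and Dnajb4, 1 of the 2 other probe sets was lower in IH5DR2. Of the 5, Hspa5, Dnajb4 and Dnajb6 turned direction with Ctrl28 in place of Ctrl.

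Of 66 genes of ubiquitin conjugation and removal 4 rose and 1 fell, against 4.38% and 1.24% of all genes, with a median of 0.09. Ube2v2, a partner of the enzyme that builds non-degradative ubiquitin chains, had 245, 261 and 286 in IH5DR2 and 124, 114 and 121 in Ctrl (log2 1.14 ± 0.26 (SE), adjusted p = 0.0247). The ubiquitin proteases Usp45 (log2 0.86, adjusted p = 0.022), Usp38 (log2 1.07, adjusted p = 0.044) and Usp1 (log2 0.58, adjusted p = 0.0377) rose and Usp36 fell (log2 -0.56, adjusted p = 0.0487), but neither of the 2 other probe sets of Usp36 was lower. Of 37 proteasome genes Psmc6, an ATPase of the regulatory particle, rose (log2 0.74, adjusted p = 0.0414) and Psma7, a subunit of the core, fell (log2 -0.42, adjusted p = 0.0414), with a median of -0.22 and a share called close to that of all genes. With Ctrl28 in place of Ctrl Usp1 passed in the opposite direction (-0.49, adjusted p = 0.0439), and Usp45 (-0.21), Usp36 (0.14) and Psmc6 (-0.18) turned without passing.

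Translation initiation factors passed in both directions. Of 46 tested 3 rose and 4 fell, against 4.38% and 1.24% of all genes, with a median of -0.10. Eif5b, which joins the ribosomal subunits, had 99.9, 113 and 88.2 in IH5DR2 and 76.01, 28.5 and 42.1 in Ctrl (log2 1.15 ± 0.29 (SE), adjusted p = 0.0324), with Ctrl array 1 close to the IH5DR2 range. Eif2s2, a subunit of the factor that carries the initiator tRNA, had 538, 615 and 605 in IH5DR2 and 383, 290.0 and 304 in Ctrl (log2 0.86 ± 0.20 (SE), adjusted p = 0.0265). Eif3a, the largest subunit of its complex, rose too (log2 0.70, adjusted p = 0.0452). Eif3f, of the same complex, fell, with 1905, 1860.3 and 1769 in IH5DR2 and 2721, 2699 and 2730.5 in Ctrl (log2 -0.56 ± 0.13 (SE), adjusted p = 0.0236). Eif2b4, of the exchange factor that recycles the initiator complex (log2 -0.48, adjusted p = 0.0337), Eif1ad (log2 -0.63, adjusted p = 0.0393) and Eif6, which keeps large subunits from joining (log2 -0.53, adjusted p = 0.0402), fell as well. With Ctrl28 in place of Ctrl 5 of these 7 turned direction, Eif6 passing that way (0.53, adjusted p = 0.0205), and Eif2s2 (-0.10), Eif3a (-0.011), Eif3f (0.048) and Eif2b4 (0.31) without passing.

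Genes of the ribosome and of energy metabolism had lower signals with few calls. Of 46 cytosolic ribosomal protein genes 44 were lower in IH5DR2, with a median of -0.31, and 2 fell, against 1.24% of all genes. These were Rpl39, with 49.1, 49.3 and 44.4 in IH5DR2 and 72.9, 157 and 119.9 in Ctrl (log2 -1.22 ± 0.30 (SE), adjusted p = 0.031), and Rpl27a, with 108, 118 and 105 in IH5DR2 and 169, 196 and 210.2 in Ctrl (log2 -0.79, adjusted p = 0.0438). Both belong to families with many near-identical copies in the genome, so their signals may hold RNA of other copies. Of 76 mitochondrial ribosomal protein genes 68 were lower, with a median of -0.31. Only Mrps11 of these fell, against 1.24% of all genes (log2 -0.53, adjusted p = 0.0469, and 0.40 with Ctrl28 in place of Ctrl). Of 79 nuclear genes of oxidative phosphorylation none passed, 72 were lower and 36 were lower on every IH5DR2 array, against 22.1% of all genes, with a median of -0.29. All 14 glycolysis genes were lower and none passed, with a median of -0.30. Of 21 genes of the citrate cycle, with a median of -0.25, only Idh2 fell, against 1.24% of all genes. Idh2 is a mitochondrial isocitrate dehydrogenase (log2 -0.47, adjusted p = 0.0495). The size of these medians depended on scaling. After quantile normalization they were -0.15 for cytosolic ribosomal proteins, -0.13 for oxidative phosphorylation, -0.18 for glycolysis and -0.30 for mitochondrial ribosomal proteins, and with Ctrl28 in place of Ctrl glycolysis stood at 0.25.

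ND5, a subunit of respiratory complex I encoded by the mitochondrial genome, went the other way and was named after its value was seen. It had 8129, 11158 and 10072 in IH5DR2, 8532, 9391 and 9681 in IH5D and 4810.2, 4529 and 5466 in Ctrl (log2 0.98 ± 0.15 (SE), adjusted p = 0.0143), so that it was higher on every IH5DR2 array, and it also passed with Ctrl28 in place of Ctrl. It was the only gene of the mitochondrial genome that was tested. Mtpn, an inhibitor of actin capping, had the smallest p of all genes, with 1972, 2195 and 2393 in IH5DR2, 2006, 1769.6 and 2015 in IH5D and 1350.5, 1114 and 1066 in Ctrl (log2 0.90 ± 0.11 (SE), adjusted p = 0.00427), and its 4 other probe sets were higher as well.

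Most antioxidant genes had lower signals. Of 26 tested 23 were lower in IH5DR2 and 11 were lower on every array, against 22.1% of all genes. The median was -0.26 (0.04 with Ctrl28 in place of Ctrl), and 2 fell, against 1.24% of all genes. Gss, which makes glutathione, had 57.8, 55.1 and 50.4 in IH5DR2, 60.1, 59.1 and 57.7 in IH5D and 82.3, 101 and 74.1 in Ctrl (log2 -0.65 ± 0.16 (SE), adjusted p = 0.0346), although its other probe set was not lower. Gstm1, a glutathione transferase, had 879, 922 and 836 in IH5DR2, 1065, 1076 and 1072 in IH5D and 1173, 1325 and 1212 in Ctrl (log2 -0.49 ± 0.14 (SE), adjusted p = 0.0487). Gstm1 passed in the opposite direction with Ctrl28 in place of Ctrl, where its log2 difference was 0.64. In DNA replication and repair 2 of 47 fell, against 1.24% of all genes, and none rose. Xrcc1, the scaffold of single-strand break repair, fell beside Fen1, with 94.4, 62.3 and 81.5 in IH5DR2 and 135, 126 and 121 in Ctrl (log2 -0.70 ± 0.19 (SE), adjusted p = 0.0412).

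Of 18 astrocyte markers 2 rose and 2 fell, against 4.38% and 1.24% of all genes. The summed signal of 18 astrocyte markers was 19713 to 20764 in IH5DR2 and 19845 to 21352 in Ctrl, with ranges that overlapped. Aqp4, the water channel of astrocyte endfeet, had 452, 621 and 514 in IH5DR2 and 365, 274 and 328 in Ctrl (log2 0.71 ± 0.19 (SE), adjusted p = 0.0426). Slc4a4, a sodium bicarbonate cotransporter that regulates pH, had 494, 520.0 and 525 in IH5DR2 and 399.6, 322 and 302 in Ctrl (log2 0.60, adjusted p = 0.041). Mlc1, a membrane protein of the same endfeet, fell, with 439, 414 and 496 in IH5DR2 and 605, 740.4 and 664 in Ctrl (log2 -0.58, adjusted p = 0.0393). The growth factor receptor gene Fgfr3 fell as well (log2 -0.54, adjusted p = 0.0483). In all 4 genes the groups did not overlap. With Ctrl28 in place of Ctrl Slc4a4 (-0.25), Mlc1 (0.36) and Fgfr3 (0.18) turned direction.

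Markers of microglia and macrophages were lower in sum, at 4441 to 4657 in IH5DR2 and 5080 to 6250 in Ctrl. Of 20 markers 14 were lower, with a median of -0.37 (0.01 with Ctrl28 in place of Ctrl), and 1 fell, against 1.24% of all genes. That gene was Laptm5, a lysosomal protein of blood-derived cells and microglia, with 143, 144 and 140.4 in IH5DR2 and 207, 208 and 226 in Ctrl (log2 -0.58 ± 0.15 (SE), adjusted p = 0.0352). Of 26 interferon and MHC class I genes 24 were lower in IH5DR2 and none passed, with a median of -0.39, and the part of microglial RNA in this was not tested. Of 17 markers of oligodendrocytes and myelin 1 rose, against 4.38% of all genes. It was Ugt8a, which makes the myelin lipid galactosylceramide (log2 0.78, adjusted p = 0.0146, and -0.16 with Ctrl28 in place of Ctrl). The median of the 17 was -0.31, and the summed signal was 26984 to 27763 in IH5DR2 and 26985 to 32898 in Ctrl. Markers of the choroid plexus, which borders the hippocampus, spread widely within groups, at 11151 to 20073 in IH5DR2, 3781 to 20584 in IH5D and 2380 to 22002 in Ctrl in sum. None of 19 passed, and Ctrl array 3 and IH5D array 3 were the lowest in sum. By the mean log2 signal of the markers IH5DR2 array 3 was low too, at 6.03 against 7.96 and 8.25 on arrays 1 and 2. So was IH5D array 1, at 5.87 against 8.28 on array 2.

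**Figure D5:**
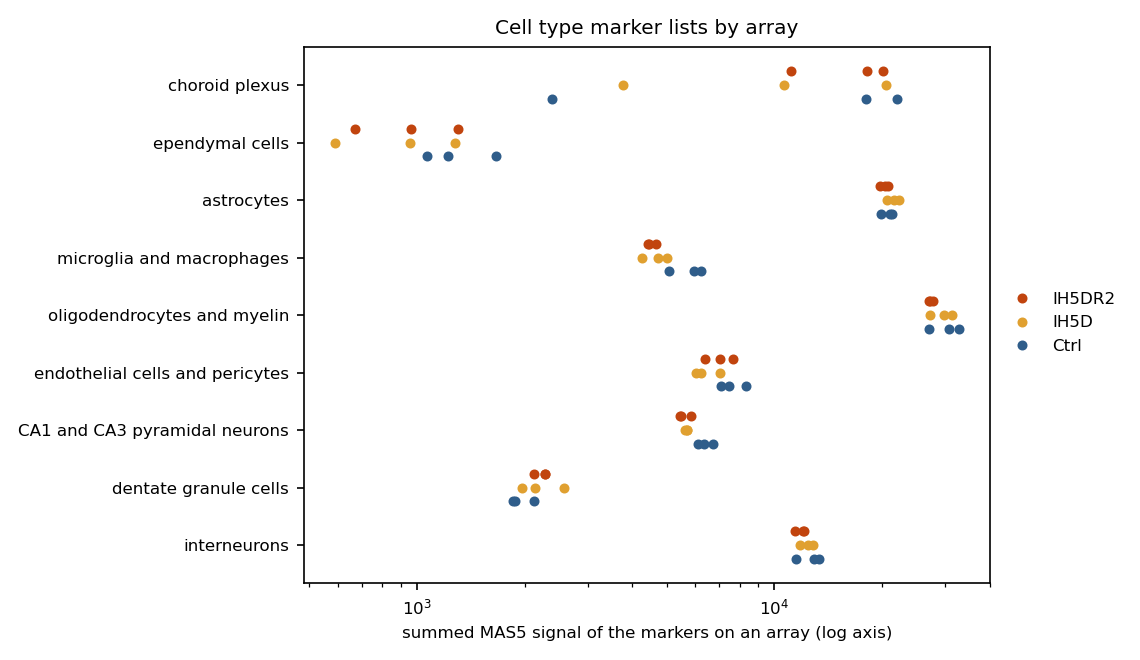
Summed MAS5 signal of marker genes (horizontal, log axis) for 9 cell types, 1 point per array, with IH5DR2 above IH5D above Ctrl. IH5DR2 lies below Ctrl without overlap for microglia and macrophages and for CA1 and CA3 pyramidal neurons and just above Ctrl for dentate granule cells, and choroid plexus sums vary most within groups.

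Against IH5D, which differs by the recovery days and the time of day, no gene passed in IH5DR2. By limma 418 genes had an unadjusted p below 0.05, the methods' t-test gave 702 before and 0 after adjustment, and the smallest adjusted p was 0.0731, for Sgk1. All IH5DR2 arrays lay above all IH5D arrays in 7.66% of genes and below them in 7.11%. Of the 510 genes that rose against Ctrl, 313 were higher and 197 lower in IH5DR2 than in IH5D, with a median log2 difference of 0.05 from IH5D and 0.74 from Ctrl. Of the 144 genes that fell, 133 were lower in IH5DR2 than in IH5D, with medians of -0.21 from IH5D and -0.61 from Ctrl. These genes were chosen by their IH5DR2 and Ctrl arrays, so the counts describe them and test nothing. The widest differences from IH5D among the genes described were those of Gm19439 (-1.78, -2.43 to -1.12, adjusted p = 0.122), Sgk1 and Malat1 (0.97, 0.24 to 1.70, adjusted p = 1). For Grm5 the difference was 0.53 (0.04 to 1.02), for Slc2a1 -0.67 (-1.09 to -0.24), for Lrrc8d -0.81 (-1.15 to -0.47) and for Fen1 -0.73 (-1.18 to -0.27). Intervals of further genes described also left out 0 without passing, such as those of Plekhf1 (-1.52 to -0.39), Fbxo41 (-0.96 to -0.30), Jund (-0.97 to -0.20) and Pick1 (-0.78 to -0.02). Others held 0, such as those of Meg3 (-0.55 to 0.23), Nlgn1 (-0.45 to 0.52), Gsk3b (-0.10 to 0.49) and ND5 (-0.25 to 0.40), which leaves room for differences of up to about these sizes either way.

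For genes with more than 1 probe set the others were compared on the same arrays. They read the same RNA samples that chose the genes, so they cannot test the difference between the groups. The share of all tested genes whose probe sets agree was not computed. Of the 510 genes that rose, 354 had other probe sets above the minimum, and in 301 of them all were higher in IH5DR2. Of the 144 that fell, 72 had others, and in 56 all were lower. Of 2486 probe sets that name no gene in the annotation used, 145 rose and 6 fell, 6.07% in all, against 4.7% of all 22932 probe sets.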

How the data were processed

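RNA of mouse hippocampus had been hybridised to Affymetrix Mouse Genome 430 2.0 arrays, 1 array per sample. The deposited values were log2 signals, which the authors had computed with the MAS5 algorithm, and they were turned back into signals for display. Of 45101 probe sets, 34945 named 1 gene in the platform annotation used, 932 named several and 9160 none (64 controls apart), and only those with 1 gene entered the tests of genes, with 34741 symbols brought up to date through the gene identifier. Each gene was represented by its probe set with the highest mean signal over the arrays, and genes whose mean signal was not above 20 were left out, which left 11656 of 18193. Probe sets of several genes or of none were tested in a separate fit over all 22932 probe sets above that minimum.

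Differences were estimated with limma 3.58.1 (R 4.3.3) in 1 model over all 18 arrays with 6 groups, 12 residual degrees of freedom and a variance trend, and p-values were adjusted by the Benjamini-Hochberg method over all genes tested. The procedure was tested on simulated data. The number of arrays limits the precision: the median standard error of a log2 difference was 0.20. Fold changes are differences of mean log2 signal. The methods' t-test, log2(signal + 16), the minimum signal, centring, quantile normalization, array weights, the choice of probe set, the 3' to 5' gap, a replicate block, the other control group and leaving out each array were tried as alternatives. All columns belonged to a labelled sample (0 did not). The members and gene lists were chosen with earlier results of these data known. The genes named were, by rule, the 15 largest rises and 15 largest falls among genes that passed, whose mean signal reached 100 in either group and whose arrays did not overlap, the 4 genes of smallest p in each list described, all clock genes, and the tau, PP2A and mTOR genes of proteins the study measured or discussed, 126 in all, of which those that carry a result are given. Bub3, Cacng2, Ccnd2, Ccng1, Cenpc1, Cntnap5a, Dleu2, Eif1ad, Eif3a, Eif6, Elavl4, Erc2, Gria2, Hmgcs1, Hspa5, Idh2, Kcnj3, Kcnq3, Kcnt2, Laptm5, Mrps11, Mtpn, Napb, ND5, Psma7, Psmc6, Ptprd, Rbfox1, Sesn3, Sf3b2, Snrnp40, Sos1, Sox4, Sox11, Srebf1, Stag1, Ugt8a, Unc13c, Usp36, Vegfa and Zfp628 were named after their values were seen.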

Additional observations from a re-analysis of the deposited data

Results flagged for a closer look

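For 3 of the 132 genes given with values, all IH5DR2 arrays lay on one side of the Ctrl mean of log2 signals and all IH5D arrays on the other, a pattern that was not tested as such. Sgk1 and Per2 were below the Ctrl mean on every IH5DR2 array and above it on every IH5D array, and so was Gm19439. The difference between IH5DR2 and IH5D itself, tested by limma, was -1.31 for Sgk1 (adjusted p = 0.0731), -1.78 for Gm19439 (adjusted p = 0.122) and -0.74 for Per2 (adjusted p = 0.552), on the log2 scale with 3 arrays per group, and none passed.

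Probe sets that name no gene in the annotation used were outside the tests of genes. Of 2486 above the minimum signal, 151 passed in IH5DR2 against Ctrl, 145 higher and 6 lower, and 0 passed against IH5D by limma.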

How the results depend on the processing

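The count of 654 genes that passed in IH5DR2 against Ctrl depended on which arrays shared the estimate of the spread. It was 2197 with the 6 arrays compared alone, 2696 with the 9 arrays of IH5DR2, IH5D and Ctrl, 2329 without the 3 Ctrl28 arrays, 2624 with the gap between 3' and 5' probe sets in the model and 3567 with array weights. It was 373 with no minimum signal, 164 with each array centred on its median, 322 with no variance trend, 329 with the mean of all probe sets of a gene and 1302 with Ctrl28 in place of Ctrl. With log2(signal + 16), quantile normalization and centring on the tested genes it was 592, 514 and 596. The methods' t-test gave 2473 genes before adjustment (1160 rose and 1313 fell) and 0 after. Leaving out 1 of the 18 arrays gave 0 to 2594, among them 416 and 415 without 12 m array 1 and 2 and 435, 405 and 378 without IH5D array 1, 2 and 3. Ctrl28 array 1 had a 3' to 5' gap of 2.39 against 0.33 to 0.97 on all other arrays. The causes were not tested.

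For IH5DR2 against IH5D the count of 0 became 8 with the 6 arrays alone, 25 with array weights, 5 with the 9 arrays, 2 without the 3 Ctrl28 arrays, 1 with centring on the tested genes and 702 with the methods' t-test before adjustment. Leaving out 1 array gave 0 to 2. The alternatives without Ctrl28, with the 9 arrays and with centring on the tested genes were chosen after seeing the data. Arrays that share a replicate number in IH5DR2 and Ctrl correlated in their deviations from the group means at 0.03, 0.12 and 0.28, array 1 was closer to Ctrl array 2 (0.11), and nothing in the labels ties them, so the numbers were not taken as pairs. With the replicate block 340 genes passed against Ctrl and 1 against IH5D.

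Of the 132 genes given with values, 55 turned direction with Ctrl28 in place of Ctrl, where the log2 differences were Siah1a -0.21, Dnajc21 -0.055, Plekhf1 0.030, Kcnj11 0.084, Meg3 -0.030, Kcnq1ot1 -0.26, Prpf4b -0.038, Hnrnpa2b1 -0.22, Tra2b -0.054, Homer1 -0.10, Cadm1 -0.25, Psd3 -0.0086, Dlg2 -0.046, Hspa5 -0.42, Dnajb4 -0.34, Dnajb6 -0.28, Ptgs2 -0.13, Hif1a -0.43, Nr3c1 -0.075, Tsc22d3 0.081, Klf9 -0.44, Per1 0.20, Nr1d2 -0.83, Gstm1 0.64, Ppp2r1a 0.17, Ppp2cb 0.58, Cdk5 0.84, Slc4a4 -0.25, Mlc1 0.36, Fgfr3 0.18, Eif2s2 -0.10, Eif2b4 0.31, Eif3f 0.048, Usp45 -0.21, Usp1 -0.49, Hdac2 -0.43, Usp36 0.14, Eif6 0.53, Eif3a -0.011, Mrps11 0.40, Sesn3 -0.26, Zfp628 0.24, Ugt8a -0.16, Zfp106 -0.35, Zfp91 -0.24, Psmc6 -0.18, Sos1 -0.33, Hmgcs1 -0.38, Sox11 -0.37, Sox4 -0.34, Kcnj3 -0.32, Napb -0.053, Ccnd2 -0.093, Ccng1 -0.44 and Erc2 -0.26. Other turns were those of Ppp2ca (0.32) and Sos1 (-0.27) with the mean of all probe sets, Mapt (-0.010) with median centring, Ppp2ca (0.12) with quantile normalization and Ppp2cb (0.023) with the gap in the model. Ppp2cb ranged between -0.089 without Ctrl replicate 2 and 0.0063 without IH5DR2 replicate 1.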

Other observations

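Other gene groups that were not part of the comparisons above passed singly. Their counts stand against 4.38% of all genes that rose and 1.24% that fell. In cholesterol synthesis and handling 1 of 26 genes rose and 1 fell. Hmgcs1, an enzyme early in the pathway, had 1868, 1740.5 and 1923 in IH5DR2 and 1273, 970.2 and 1139.6 in Ctrl (log2 0.72 ± 0.13 (SE), adjusted p = 0.0146), and Srebf1, a transcription factor of lipid synthesis, had 198, 262 and 159 in IH5DR2 and 324, 378 and 269 in Ctrl (log2 -0.67 ± 0.17 (SE), adjusted p = 0.0352). The groups did not overlap in either gene. Of 26 genes of immature neurons and neurogenesis 3 rose. Sox11, a transcription factor of newborn neurons, had 87.3, 80.95 and 86.2 in IH5DR2 and 55.7, 38.9 and 36.5 in Ctrl (log2 0.98 ± 0.20 (SE), adjusted p = 0.0212), with 5 of 5 other probe sets on the same side. The related gene Sox4 (log2 0.50, adjusted p = 0.0391) and Elavl4, a neuronal RNA-binding protein (log2 0.79, adjusted p = 0.0408), were the others, and the median of the 26 was 0.08, which became -0.01 with arrays centred on the median of all probe sets.

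Of 57 potassium channel genes 3 rose and 1 fell. Besides Kcnj11, Kcnq3, a subunit of the channel that carries the M current, had 563, 625 and 443 in IH5DR2 and 397, 248 and 287 in Ctrl (log2 0.82 ± 0.19 (SE), adjusted p = 0.0269), although its other probe set was lower. Kcnj3, a G protein-gated channel subunit (log2 0.56, adjusted p = 0.0402), and Kcnt2, a sodium-activated channel (log2 0.91, adjusted p = 0.0487), rose too. Of 42 genes of synaptic vesicle release 3 rose, Napb (log2 0.66, adjusted p = 0.016), which helps to disassemble SNARE complexes, Erc2 (log2 0.53, adjusted p = 0.0438), a protein of the presynaptic active zone, and Unc13c (log2 0.87, adjusted p = 0.0448), which primes vesicles. Of 32 genes of the cell cycle 4 rose and 1 fell. Ccnd2, a cyclin of neural progenitors, had 443, 337 and 464 in IH5DR2 and 333, 237 and 203 in Ctrl (log2 0.70 ± 0.18 (SE), adjusted p = 0.0367). Ccng1, a cyclin induced by p53 (log2 0.84, adjusted p = 0.0143), Stag1, a subunit of cohesin (log2 1.03, adjusted p = 0.0334), and Cenpc1, a centromere protein (log2 1.06, adjusted p = 0.0324), were the others that rose, and Bub3, of the mitotic checkpoint (log2 -0.46, adjusted p = 0.0392), fell. With Ctrl28 in place of Ctrl, Hmgcs1, Sox11, Sox4, Kcnj3, Napb, Erc2, Ccnd2 and Ccng1 turned direction. Like all calls above, none of these passed without Ctrl array 2 or without IH5DR2 array 2 or 3.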
